A study of Homo sapiens with 5 samples.

Results

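The RNA regions crosslinked to an arginine-rich dipeptide repeat were set against those crosslinked to an uncharged one in the same experiment. The first protein was GFP-(GR)50, green fluorescent protein fused to 50 glycine-arginine repeats. The other was GFP-(GP)10, the same protein fused to 10 glycine-proline repeats. All 1153 regions that the authors listed for these 2 libraries were taken, 805 for GFP-(GR)50 and 348 for GFP-(GP)10, of 3147 regions listed over the 5 libraries of the series. Both libraries were CLIP-Seq of HEK-293 cells, an established human embryonic kidney line, transfected by lipofection. Crosslinking with 254 nm light at 100 mJ/cm2, RNase I at 0.02 units/ml, a pulldown of 1.5 hours on anti-GFP beads and the gel region cut out were shared by both. An untransfected HEK-293 library of the same experiment went through the same pulldown without GFP, and GFP-(GR)50 and GFP alone were each sequenced once in an earlier experiment at 0.04 units/ml of RNase I. Each fusion has 1 library here, so no difference below has a replicate check and none was tested. The 2 repeats differ in length as well as in charge, and these cannot be told apart.

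Poly-GR and poly-GP are both translated from the expanded C9ORF72 repeat of amyotrophic lateral sclerosis and frontotemporal dementia. Arginine carries a positive charge, and poly-GR gathers in the nucleolus and on ribosomes, where most of the RNA is ribosomal. Poly-GP is uncharged and is generally described as the least toxic of these repeats. In CLIP-Seq, ultraviolet light joins RNA to the protein that touches it, RNase trims the RNA, and the fragments that come down with the protein are sequenced.

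The value of a region is its listed reads, in which the authors counted reads with several possible origins at a scaled weight. Reads that map to 1 place are called unique reads. No region is listed below 5 reads, so a region missing from a list has either fewer reads or no call, not a measured value of 0. Intervals are exact Clopper-Pearson 95% intervals, which cover counting error only. The GFP-(GR)50 list summed to 134222 listed reads and the GFP-(GP)10 list to 7468, 17.97 times fewer. Outside rRNA the totals were 6995 and 2061, a ratio of 3.39, and these 2 ratios are the yardsticks for every ratio of reads given below. Regions were short and thin in both lists. The median width was 54 bp (quartiles 45 and 107) against 54.5 bp (47 and 143), the median value was 6.75 against 6.41 listed reads, and 70.8% and 74.4% of regions had fewer than 10. No region lay on the mitochondrial chromosome in any list.

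A few short sequences show places where the lists part, most of them in rRNA-annotated sequence. Of the mature microRNAs in the RefSeq table (GRCh38.p14), 6 lay wholly inside a GFP-(GR)50 region, and none lay inside a region of the GFP-(GP)10 or the untransfected list. They are printed because 5 of them mark stretches of rRNA-annotated sequence that the GFP-(GP)10 list leaves out, and the other lies in the highest tRNA region found in GFP-(GR)50 alone. Bases 2 to 8, the seed, are in capitals:
hsa-miR-3648: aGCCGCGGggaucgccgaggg
hsa-miR-10396a-5p: gGCGGGGCucggagccggg
hsa-miR-10396a-3p: gGCCCCGGgcccucgaccggg
hsa-miR-10396b-5p: cGGCGGGGcucggagccggg
hsa-miR-10396b-3p: gGCCCCGGgcccucgaccggac
hsa-miR-12136: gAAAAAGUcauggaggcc

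The 3p arms of miR-10396a and miR-10396b share 1 seed, and no other pair of the 6 does. The first 3 sequences lie on the plus strand at chr21:8987026-8987046, chr21:8987617-8987635 and chr21:8987645-8987665. They fall in the front part of a region at chr21:8986604-8988752 that held 785.97 listed reads in GFP-(GR)50. GFP-(GP)10 listed only the back of that locus, chr21:8988089-8988749, with 22.57 reads. The miR-10396b arms, at chr21:8436324-8436343 and chr21:8436353-8436374, lie in a region of 13386 bp that spans the RNA45SN1 transcript and held 12735 listed reads. The GFP-(GR)50 library of the earlier experiment also covered these 5 sequences, and the GFP library of that experiment covered 4 of them, all but miR-3648. miR-12136, at chr1:632668-632685 on the minus strand, lies in a region annotated as tRNA-Ser-TCA(m), with 49 listed reads and no unique read in GFP-(GR)50, and in no other list. These reads are of the whole regions and say nothing of mature microRNA.

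Most regions of the 2 lists did not coincide. By an overlap of at least 1 bp on the same strand, 121 of the 805 GFP-(GR)50 regions (15%) met a GFP-(GP)10 region, and 175 of the 348 GFP-(GP)10 regions (50.3%) met a GFP-(GR)50 region. The overlapping regions held most of the reads, 93.7% in GFP-(GR)50 and 85.6% in GFP-(GP)10. The share that overlapped differed widely between RNA classes. All 66 rRNA, 9 snRNA and 1 7SK regions of GFP-(GP)10 were overlapped by GFP-(GR)50, as were 4 of its 5 snoRNA regions. In contrast, 6 of its 75 intronic and 1 of its 13 exonic regions were. Of its 68 tRNA regions, 30 overlapped and 38 did not. In the other direction, 30 of 39 tRNA regions of GFP-(GR)50 were overlapped, but only 27 of 119 rRNA, 1 of 26 7SK, 1 of 96 exonic and 6 of 187 intronic regions.

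**Figure D1:**
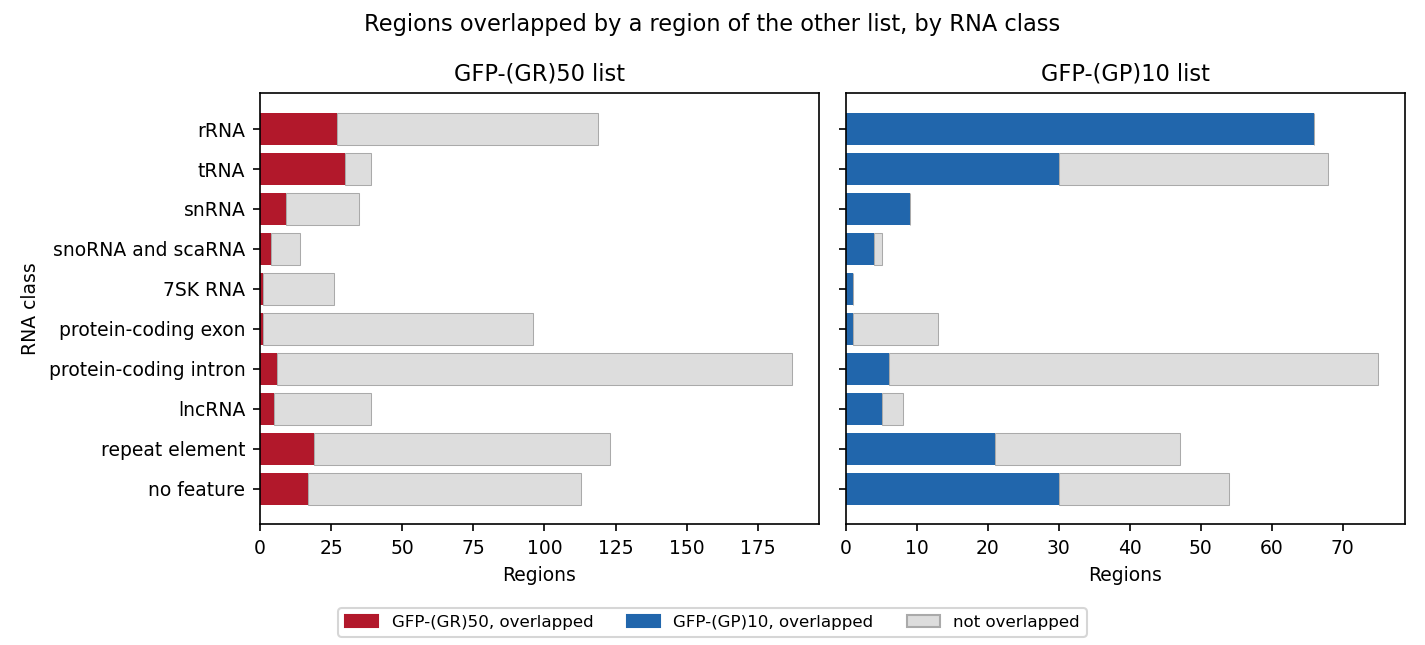
Number of regions in each list by RNA class, with the coloured part overlapped by a region of the other list by at least 1 bp on the same strand. The 2 panels have different horizontal scales. The rRNA bar of GFP-(GP)10 is coloured throughout (66 of 66), whereas 1 of 26 7SK and 6 of 187 intronic regions of GFP-(GR)50 are.

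Untransfected cells give the background of the pulldown. Among regions in both lists, 76.0% of those of GFP-(GR)50 and 83.4% of those of GFP-(GP)10 also met an untransfected region. Among regions in 1 list alone the shares were 16.8% (115 of 684) and 15.03% (26 of 173). The GFP-(GR)50 library of the earlier experiment overlapped 89 of the 684 regions found in GFP-(GR)50 alone, and 67 of these 89 were rRNA. The GFP library of that experiment overlapped nearly as many of the 684, 82 regions with 30 of them rRNA. These 2 earlier lists differ in size. GFP-(GR)50 had 183 regions there, 70 of them outside rRNA, and GFP had 472, 394 of them outside rRNA. The overlap counts with the 2 lists are therefore not on a like footing. Of the 173 regions found in GFP-(GP)10 alone, the earlier GFP-(GR)50 library overlapped 1 and the GFP library 37. The 2 experiments differed in RNase I and in annotation version.

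Ribosomal RNA held more listed reads than any other class in both lists. It took 75.6% of listed reads in GFP-(GR)50 (95% interval 75.4 to 75.8) and 57.5% in GFP-(GP)10 (56.4 to 58.7). Among regions of 10 or more reads the shares were 77.5% and 70.5%, and among unique reads 48.0% and 4.66%. A contig without annotation carries regions that match annotated rRNA regions in width and reads, and with these the shares were 94.8% and 72.4%. Reads over the rDNA repeat units, which encode the 45S precursor of 18S, 5.8S and 28S rRNA, came to 949 per kb of listed sequence in GFP-(GR)50, 68.9 in GFP-(GP)10 and 122.6 in untransfected cells. The form of the regions differed too. GFP-(GR)50 had 11 regions over these units with a median width of 10056 bp, whereas GFP-(GP)10 had 50 with a median of 1054 bp. The 5 highest regions of GFP-(GR)50 were 4 regions over RNA45SN4 (14665 listed reads), RNA45SN5 (13043), RNA45SN1 (12735) and RNA45SN2 (12021) and the matching contig region (12731). The 5 highest of GFP-(GP)10 all lay in 28S sequence or its contig match, were 2103 or 2104 bp wide, and held from 244.04 to 244.95 listed reads. Since the copies share sequence, the equal values are shared reads and not separate measurements.

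At the rDNA units where the joined locus named both ribosomal subunits, or 28S alone, GFP-(GR)50 had between 20.10 and 24.61 times the reads of GFP-(GP)10, above the ratio of all listed reads. The precursor ahead of 18S had higher ratios. RNA45SN2 there held 654.3 listed reads in GFP-(GR)50 and 5.47 in GFP-(GP)10, a ratio of 119.6 (95% interval 55.8 to 404), and RNA45SN3 held 601.37 and 5.47. Untransfected cells had 20.37 reads at both. GFP-(GP)10 listed only 894 bp of these stretches against 3234 and 3076 bp in GFP-(GR)50, so the ratio per kb of listed sequence was 33.1 at RNA45SN2 and 32.0 at RNA45SN3. Over the RNA45SN1 transcript the ratio per kb was 14.6. A further stretch of 2401 bp at chr21:8250196-8252596, directly ahead of an 18S region, is annotated as a repeat element and held 520.62 and 5.55 reads.

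Single copies of rRNA sequence scattered over the genome made up 105 of the 805 regions of GFP-(GR)50, with 6922 listed reads. In GFP-(GP)10 they made up 15 of 348, with 148 reads. The median copy in GFP-(GR)50 held 27.72 reads, and the GFP-(GP)10 list is 17.97 times smaller in listed reads. At an equal share of these the median copy would fall below 5 reads in GFP-(GP)10, so its absence there was not measurable. Those of the large subunit (28S) numbered 59 against 7, and those of the small subunit (18S) 41 against 8. Uniquely mapping reads were present in this group, 2206 in GFP-(GR)50 and 29 in GFP-(GP)10. Among the large-subunit copies in both lists, those on chromosome 9 (630.51 against 9.69 reads), chromosome 12 (428.2 against 5.61) and chromosome 5 (301.19 against 9.05) were among the highest in ratio. The only 5S locus in both lists, transcribed by RNA polymerase III away from the 45S units, had 16 unique reads in GFP-(GR)50 and 7 in GFP-(GP)10, a ratio of 2.29, and 21 in untransfected cells.

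Outside rRNA the 2 lists were made up differently. Relative to reads outside rRNA, 7SK RNA took 9.18% in GFP-(GR)50 (95% interval 8.51 to 9.88) and 0.529% in GFP-(GP)10 (0.267 to 0.953). Exons of protein-coding genes took 8.78% (8.12 to 9.47) against 3.60% (2.83 to 4.49), and lncRNA 8.70% (8.06 to 9.39) against 3.03% (2.31 to 3.84). Transfer RNA went the other way, at 6.74% (6.16 to 7.35) against 35.4% (33.3 to 37.5). Introns were close, at 20.9% (19.95 to 21.9) against 22.3% (20.5 to 24.2). In untransfected cells tRNA took 0.551%, 7SK 0.148%, exons 2.92% and introns 28.4%. Relative to all listed reads, where rRNA fills most of GFP-(GR)50, the order of exons (0.457% against 0.994%) and of lncRNA (0.453% against 0.837%) turned round, while 7SK (0.478% against 0.146%) and tRNA (0.351% against 9.76%) kept theirs. For 7SK this rests on 25 regions in copies of the gene that GFP-(GP)10 did not list. The gene RN7SK itself, in both lists, stood at 0.834 times on that scale.

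**Figure D2:**
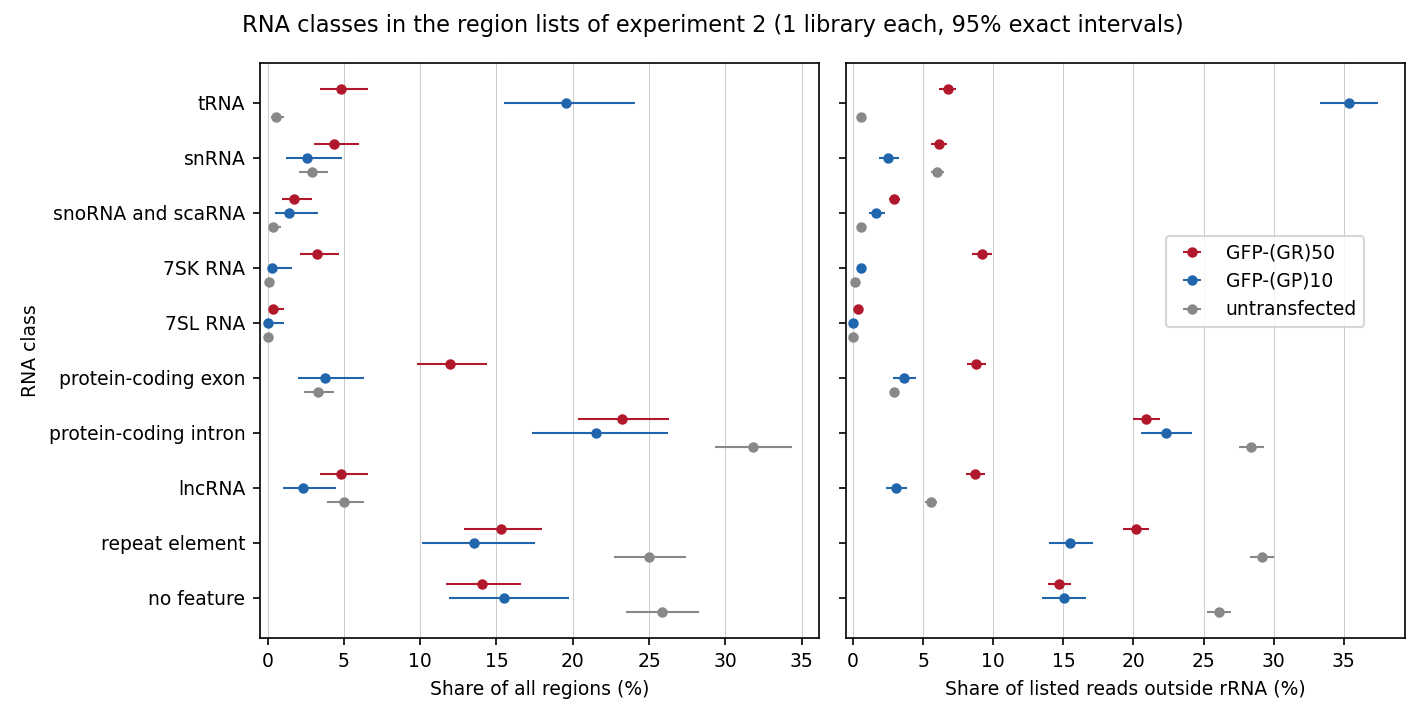
Share of regions (left, all regions) and of listed reads outside rRNA (right) in each of the main RNA classes other than rRNA for the 3 libraries of experiment 2, with exact 95% intervals that cover counting error only. In the right panel tRNA stands at 35.4% in GFP-(GP)10 against 6.74% in GFP-(GR)50, and 7SK RNA at 0.529% against 9.18%.

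7SK RNA, the nuclear RNA that holds the transcription elongation factor P-TEFb inactive, had the highest ratio among the small RNA genes listed for both fusions. The gene RN7SK had 163.34 listed reads in GFP-(GR)50 (58 unique), 10.9 in GFP-(GP)10 (5 unique) and 15.3 in untransfected cells. Its region covered 335 bp and 320 bp, so nearly the same stretch was listed. GFP-(GR)50 also listed 25 regions in copies of 7SK elsewhere, with 478.88 reads from 5 to 58.61 each and 96 unique reads. GFP-(GP)10 and untransfected cells listed none of them, while in the earlier experiment the GFP-(GR)50 library met 9 of them and the GFP library 3. RN7SKP203 (58.61), RN7SKP255 (49.48), RN7SKP176 (44.96), RN7SKP230 (36.81) and RN7SKP9 (36.64) were the highest of these copies, and how many of their reads come from RN7SK itself was not tested.

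Spliceosomal snRNAs are the RNA parts of the splicing machinery. Of this list GFP-(GR)50 named 22 and GFP-(GP)10 named 8, all 8 shared and all of them U1, which recognises the 5′ splice site. As shares of all names outside rRNA these counts were close, at 4.87% of 452 in GFP-(GR)50 and 5.13% of 156 in GFP-(GP)10. U1 summed to 223.78 reads over 13 regions in GFP-(GR)50 and 56.93 over 10 regions in GFP-(GP)10. Each U1 locus annotated as snRNA had 16.93 to 17.81 reads against 5.22 to 6.89, at ratios of 2.46 to 3.34. These ratios lie just under the ratio of 3.39 for all reads outside rRNA. In untransfected cells U1 summed to 467.67 reads over 20 regions, more than with either fusion. GFP-(GR)50 regions over U1 were 163 to 165 bp wide against at most 143 bp, and at the median they began 20 bp further towards the 5′ end.

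U2, which pairs with the branch point, had 108.69 reads over 15 regions in GFP-(GR)50, no region in GFP-(GP)10 and 152.89 reads over 16 regions in untransfected cells. U5, which holds the exons in place, had 71 reads (60 unique) over 5 regions in GFP-(GR)50, no region in GFP-(GP)10 and 10.16 reads in untransfected cells. The highest U5 regions were RNU5B-1 with 27 reads and RNU5A-1 with 20. The single regions of U7 (17 reads), U12 (14) and U4 (10.42) were likewise listed in GFP-(GR)50 and not in GFP-(GP)10. Untransfected cells also listed U7 (9 reads) and U12 (8), but not U4. The GFP library of the earlier experiment met all 5 U5 regions, 14 of the 15 U2 and all 13 U1 regions. It also met the U4 and U12 regions, but not the U7 region. In plain reads U1 and U2 were lower in GFP-(GR)50 than in untransfected cells, whereas 7SK and U5 were higher. The untransfected list held 10305 reads outside rRNA against 6995 in GFP-(GR)50, so plain reads do not compare shares. As shares of reads outside rRNA, the whole snRNA class was close, at 6.11% in GFP-(GR)50 and 5.98% in untransfected cells.

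Small nucleolar RNAs guide rRNA modification and cleavage. GFP-(GR)50 named 14 and GFP-(GP)10 named 5, close shares of their names outside rRNA (3.10% and 3.21%), with 4 in both. Those 4 were genes of U3, which directs early cleavage of the 45S precursor. SNORD3A had 29.8 reads in GFP-(GR)50, 8.81 in GFP-(GP)10 and 13.61 in untransfected cells. SNORD3B-1 had 28.33, 6.31 and 12.52 reads, and SNORD3B-2 had 27.84, 6.31 and 11.82. All 4 U3 loci had between 3.38 and 4.49 times the reads of GFP-(GP)10, and all of these reads map to more than 1 place. U8, needed to mature 28S and 5.8S rRNA, was listed in GFP-(GR)50 and not in GFP-(GP)10, under the names U8 (11 unique reads) and SNORD118 (7). Of the GFP-(GR)50 regions, the GFP library of the earlier experiment met all 5 of U3, 1 of 2 of U8 and 2 of 7 others. SNORA75 (7 reads) was the one snoRNA named in GFP-(GP)10 alone.

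Further structured RNAs had low values in GFP-(GR)50. RMRP, the RNA of the enzyme that cuts precursor rRNA, had 31.5 listed reads (31 unique) in GFP-(GR)50, and RPPH1, the RNA of RNase P that trims tRNA ends, had 25, all unique. 7SL RNA of the signal recognition particle had 24.26 reads over 3 regions, the Y RNA HY5 had 7 and the vault RNA VTRNA1-2 had 5. Neither GFP-(GP)10 nor untransfected cells listed any of these 5 RNAs. The GFP library of the earlier experiment met the RMRP, HY5 and VTRNA1-2 regions and 2 of the 3 7SL regions, and none of RPPH1.

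**Figure D3:**
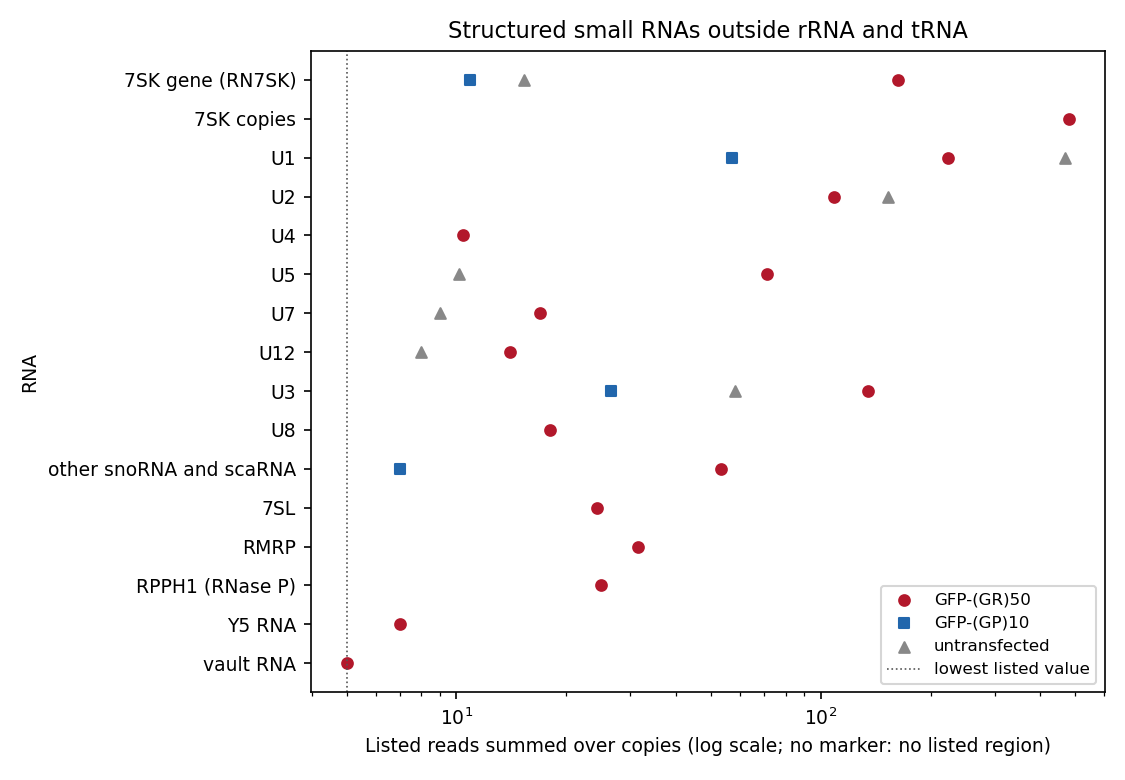
Listed reads of structured small RNAs on a log axis, summed over the copies of each RNA, for GFP-(GR)50, GFP-(GP)10 and untransfected cells. A missing marker means no listed region, and the dotted line is the lowest listed value of 5. RN7SK stands at 163.34 reads against 10.9, while U1 is highest in untransfected cells (467.67).

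Transfer RNA, which carries amino acids to the ribosome, was the class in which GFP-(GP)10 exceeded GFP-(GR)50 in plain reads despite its smaller total. GFP-(GP)10 had 68 tRNA regions with 728.63 listed reads (366 unique), and GFP-(GR)50 had 39 with 471.17 (250 unique). Untransfected cells had 7 regions with 56.76 reads. At the 30 tRNA loci in both lists, GFP-(GP)10 had more reads at 26, and the median ratio of GFP-(GR)50 to GFP-(GP)10 was 0.773 (0.360 to 2.01). Loci of 1 tRNA share sequence and reads, so they are not 30 separate measurements. The 95% interval of the ratio lay wholly below 1 at 4 of the 30 loci, all of them copies of tRNA-Glu-GAG_ with equal values (6.02 against 16.73), and above 1 at none.

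The difference was uneven over amino acids. GFP-(GP)10 listed tRNAs for 12 and GFP-(GR)50 for 10, with 7 in common. Glutamate tRNA had 60.49 reads in GFP-(GR)50 and 174.76 in GFP-(GP)10, asparagine tRNA 17.7 and 61.1, and aspartate tRNA 86.84 and 130.59. Lysine tRNA was almost level, at 115.65 and 122.02 reads with 74 unique reads in both. Arginine tRNA was higher in GFP-(GR)50, at 82.83 and 49.75. Most of the arginine reads came from the tRNA-Arg-CGA_ locus at chr15:89335099-89335146, with 50 listed reads in GFP-(GR)50 and 32 in GFP-(GP)10, all unique, and 8 (7 unique) in untransfected cells.

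The tRNAs that GFP-(GP)10 listed and GFP-(GR)50 did not were led by tRNA-His-CAY_ (9 regions, 52.9 reads), tRNA-Gly-GGA (5 regions, 34.94), tRNA-Thr-ACY (3 regions, 21.83) and tRNA-Glu-GAA (2 regions, 16.58). None of these 4 was listed in untransfected cells. Of the 38 tRNA regions in GFP-(GP)10 and not in GFP-(GR)50, 36 met a region of the GFP library of the earlier experiment. Only 1 met the GFP-(GR)50 library of that experiment, which listed 70 regions outside rRNA against 394 for GFP. Most tRNA regions of either list met that GFP library, 66 of 68 for GFP-(GP)10 and 36 of 39 for GFP-(GR)50. The highest tRNA name in GFP-(GR)50 alone was tRNA-Ser-TCA(m) (49 reads, none of them unique), the region on chromosome 1 that holds miR-12136. These reads have several possible origins, and whether they come from this locus was not tested. Serine tRNA apart from this region had 8 reads in GFP-(GR)50 and 23.16 in GFP-(GP)10.

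**Figure D4:**
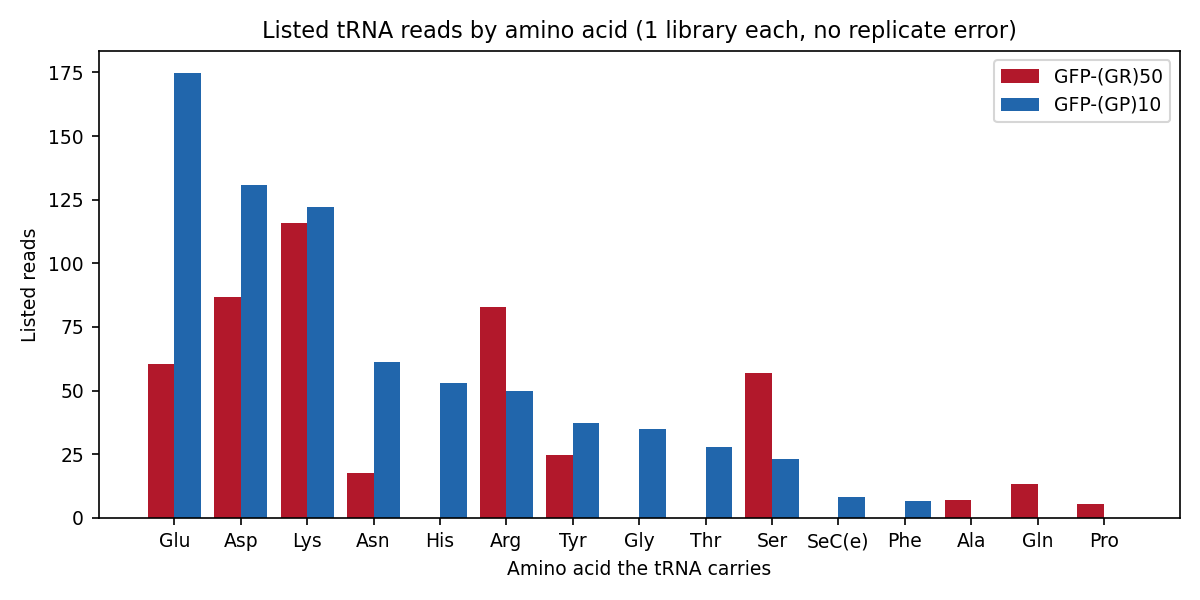
Listed reads of tRNA regions by the amino acid carried, in GFP-(GR)50 and GFP-(GP)10 (1 library each, no error bars). GFP-(GP)10 is higher for 10 amino acids and has the only bars for His, Gly, Thr, Phe and SeC(e), whereas GFP-(GR)50 is higher for Arg and Ser and has the only bars for Gln, Ala and Pro. In the Ser bar of GFP-(GR)50, 49 reads are of tRNA-Ser-TCA(m) and none of these is unique.

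Within protein-coding genes, GFP-(GR)50 had 96 exonic and 187 intronic regions, and GFP-(GP)10 had 13 and 75. Exonic regions were 11.9% of all regions (95% interval 9.77 to 14.4) in GFP-(GR)50, 3.74% (2.00 to 6.30) in GFP-(GP)10 and 3.29% in untransfected cells. Among the highest regions of GFP-(GR)50, as many as GFP-(GP)10 has in all, the exonic share was 5.46%. The median width of exonic regions was 68.5 bp against 44 bp, and their highest values were 16.06 (GNAS) and 7 reads. Of the exonic regions 71 of 96 in GFP-(GR)50 touched no annotated repeat on either strand, as did 5 of 13 in GFP-(GP)10 and 12 of 44 in untransfected cells. Untransfected regions met 2 of the 96.

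Transcripts of the translation machinery were present in GFP-(GR)50 at low values, in exons except for RPL13A, EIF2S2 and EIF3L, whose regions were intronic. EEF2, the elongation factor that moves the ribosome along the mRNA, had 6 regions with 47.92 listed reads (47 unique), and EEF1G, a subunit of the elongation factor that delivers tRNA, had 2 with 15.17. Of the ribosomal protein list, which here includes RACK1, GFP-(GR)50 named 8 and GFP-(GP)10 named none. RPL13 (16.51 reads over 2 regions), RPLP2 (13.75 over 2), RPL8 (12.58) and RPS3 (10.78 over 2) were the highest. The translation factor list had 4 names in GFP-(GR)50 and 1, EIF1 with 5 reads, in GFP-(GP)10, or 0.885% and 0.641% of their names outside rRNA. None of these 13 genes was listed in untransfected cells. The ribosomal protein names made up 1.77% of the 452 names outside rRNA in GFP-(GR)50, and the GFP-(GP)10 list has only 156 names in which to show them.

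The other protein lists were thin. Histone genes, whose mRNAs lack a poly(A) tail, had 4 names in GFP-(GR)50 (HIST2H4A and HIST2H4B with 8 reads each and no unique read, HIST1H3H with 6, HIST1H3B with 5.5) and none in GFP-(GP)10. Of 34 nucleolar and ribosome biogenesis genes, POLR1B (6 reads), GNL3 (5, in an intron) and NOP56 (5) were named in GFP-(GR)50 and none in GFP-(GP)10. The histone and nucleolar names made up 0.885% and 0.664% of the 452 names outside rRNA in GFP-(GR)50, and GFP-(GP)10 has only 156. All of their values lie below the 17.0 reads at which an equal share would reach the GFP-(GP)10 list, so these absences show no difference. The hnRNP and SR splicing factor list gave HNRNPU (9) in GFP-(GR)50 and SRSF6 (6) and HNRNPA2B1 (5) in GFP-(GP)10. Of 26 genes linked to ALS or FTD, ATXN2 had 16.5 reads in GFP-(GR)50 and 10 in GFP-(GP)10, and MATR3 had 11 and 7 in regions that did not overlap. Both were also listed in untransfected cells, at 17.12 and 22.33. PUM2 (5 reads in GFP-(GR)50) was the only other stress granule name, and none of the 21 chaperone genes was named in either list. ACTG1, cytoplasmic actin, was the only gene whose exonic regions overlapped, at 7 and 5 reads.

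Intronic regions rarely recurred. The 6 intronic loci in both lists, in EOMES, GLE1, GOLM1, SRGAP2B, RETREG3 and DGKI, had a median ratio of 1.08, and all 6 were also listed in untransfected cells. EOMES, a transcription factor gene, had 8 reads in GFP-(GR)50, 19 in GFP-(GP)10 and 24.59 in untransfected cells. Regions opposite an annotated SINE, the repeat class that holds Alu elements, made up 59.4% of intronic regions in GFP-(GR)50 (95% interval 51.9 to 66.5), 73.3% in GFP-(GP)10 (61.9 to 82.9) and 70.9% in untransfected cells. The 7 names outside tRNA with the most reads in GFP-(GP)10 alone, PEX14 (12 reads), POU2F1 (10.5), CGREF1, DDX27 and ZNF484 (10 each), and AC087632.2 and PCLAF (1 shared region, 9 reads), were introns or repeats within genes. SMARCA1 (8.5), CARM1 and MAML3 (8 each) came after them. Untransfected cells listed 3 of these 10 names, POU2F1 (35.73), DDX27 (5) and MAML3 (6).

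A handful of very short intronic and noncoding regions of GFP-(GR)50 had high unique counts. GALNT1, a glycosyltransferase gene, held 142 unique reads in 24 bp at chr18:35589205-35589228, and SUSD1 held 79 in 42 bp at chr9:112130422-112130463. PRICKLE2 and CYP26C1 had 42.5 listed reads each, over 37 and 26 bp. None of these 4 was listed in GFP-(GP)10, in untransfected cells or in the GFP-(GR)50 library of the earlier experiment. LINC01170, a long noncoding RNA, was the one such locus that both fusions listed. Its 41 bp at chr5:124235489-124235529 held 224.83 reads (222 unique) in GFP-(GR)50 and 14 reads, all unique, in GFP-(GP)10, a ratio of 16.1, with no region in untransfected cells.

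LINC01170, SUSD1 and the lncRNA AC010280.1 (34 unique reads in 32 bp) share an annotation that was not used to choose them, a low-complexity stretch on the opposite strand. GFP-(GR)50 had 18 such regions outside rRNA with 528.34 listed reads, 7.55% of its reads outside rRNA. GFP-(GP)10 had 4 with 34.71 reads (1.68%) and untransfected cells 11 with 99.49 (0.965%). All 18 lay on the minus strand, as did the 4 and the 11. Low-complexity and simple repeats on the same strand always met plus-strand regions, so their annotation has 1 strand only. The 3 named regions hold 337.83 of these 528.34 reads, and without them the share in GFP-(GR)50 is 2.86%. The 1.68% of GFP-(GP)10 is not the like value, since LINC01170 gives 14 of its 34.71 reads. Of the 18, 2 met an untransfected region and 1 met a GFP-(GP)10 region, against 24.0% and 13.2% of all GFP-(GR)50 regions outside rRNA.

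Among long noncoding RNAs, MALAT1, an abundant nuclear RNA of splicing speckles, had 56.17 reads over 6 regions in GFP-(GR)50, 13 over 1 in GFP-(GP)10 and 49 over 6 in untransfected cells. NEAT1, the scaffold of paraspeckles, had 19 reads in GFP-(GR)50, no region in GFP-(GP)10 and 50 reads in untransfected cells. MIR663AHG had 69.26 reads over 4 regions in GFP-(GR)50 and no region in the other 2 lists. AL669831.3, annotated as a pseudogene at chr1:630755-631028, had 27.17 reads in GFP-(GR)50 and 5 in GFP-(GP)10, with no region in untransfected cells. None of its reads was unique in either list, so their origin is open.

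Repeat elements took 20.2% of reads outside rRNA in GFP-(GR)50 (95% interval 19.2 to 21.1) and 15.5% in GFP-(GP)10 (13.9 to 17.1). This order rests on 1 region, the rDNA stretch with 520.62 reads described above, without which GFP-(GR)50 stands at 13.7%. GFP-(GP)10 also kept 5 regions with no rRNA name inside the rDNA arrays, 87.55 reads or 4.25% of its reads outside rRNA, and 2 of these (69.4 reads) have no annotation. Simple repeats on the same strand met 74.0% of the repeat-element regions in GFP-(GR)50 and 87.2% of the 47 in GFP-(GP)10. Every one of the 19 repeat-element loci in both lists was also listed in untransfected cells, and their median ratio was 1.11. OXSR1 (22 against 7 reads, with 36.04 in untransfected cells), LSM3 (12.42 against 9.83, with 17.87) and FOCAD (10.25 against 7, with 27) were among them.

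The 121 loci in both lists can be ordered by their ratio of plain reads, GFP-(GR)50 over GFP-(GP)10. The medians were 0.773 for tRNA (30 loci), 1.08 for introns (6), 1.11 for repeat elements (19), 1.42 for unannotated regions (13), 1.67 for lncRNA (5), 3.22 for U1 (9), 4.38 for U3 (4), 14.99 for RN7SK and 21.5 for rRNA (27). Neighbouring classes overlapped in their ranges from tRNA through lncRNA. The U1 range of 2.46 to 3.34 ended just below the U3 range of 3.38 to 4.49. Outside rRNA, GFP-(GR)50 had more reads at 51 of 90 loci and GFP-(GP)10 at 38, with a median of 1.104, below the 3.39 that equal shares would give. A locus enters only where both libraries pass 5 reads, which leaves the thinner library, GFP-(GP)10, with its best-covered loci.

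As shares of all listed reads, 7 of 121 loci were past 2-fold higher in GFP-(GR)50 (5.79%) and 93 past 2-fold higher in GFP-(GP)10 (76.9%). The 7 were 5 rRNA loci, 1 contig match and the rDNA stretch annotated as a repeat. Nearly every locus outside rRNA was among the 93, 86 of 90, including all 30 tRNA, 9 U1, 4 U3 and 6 intronic loci. Scaled to reads outside rRNA, 29 were past 2-fold higher in GFP-(GR)50 (24%) and 60 in GFP-(GP)10 (49.6%). Of the 29, 21 were rRNA loci and 4 were contig matches, whose reads are not part of that total. Among the 90 loci outside rRNA, 4 were past 2-fold higher in GFP-(GR)50 and 60 in GFP-(GP)10. By that scale 29 of 30 tRNA loci stayed among those higher in GFP-(GP)10, no U1 or U3 locus passed 2-fold, and RN7SK and LINC01170 joined those higher in GFP-(GR)50. Both scales divide every plain ratio by a constant, so they shift all loci alike. RN7SK was 14.99 times in plain reads, 4.41 times relative to reads outside rRNA and 0.834 times relative to all listed reads, and the U1 medians were 3.22, 0.949 and 0.179.

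**Figure D5:**
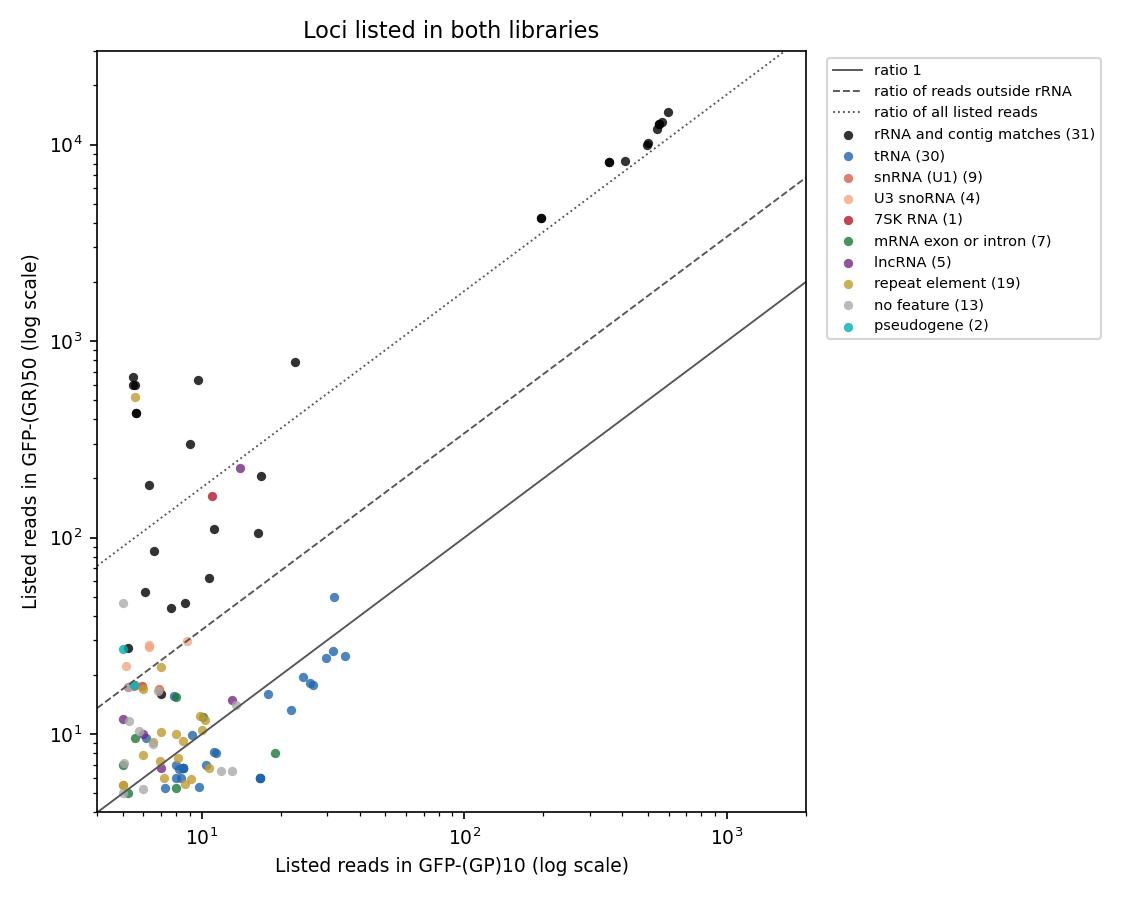
Listed reads of the 121 loci in both lists, GFP-(GP)10 on the horizontal and GFP-(GR)50 on the vertical log axis, coloured by RNA class. The lines mark equal reads, the ratio of reads outside rRNA (3.39) and the ratio of all listed reads (17.97). Most tRNA loci lie under the line of equal reads, U1 and U3 lie near the middle line, and every rRNA locus but 5S lies above the middle line.

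By name, 452 genes or RNAs outside rRNA were listed for GFP-(GR)50 and 156 for GFP-(GP)10, with 52 in both, which is 11.5% of the first list and 33.3% of the other. Of the 400 names in GFP-(GR)50 alone, 62 were also listed in untransfected cells and 19 in the GFP-(GR)50 library of the earlier experiment. Of the 104 in GFP-(GP)10 alone, 20 and 1 were. That earlier library listed only 70 regions outside rRNA in all. Names in both lists with the highest ratios were LINC01170, RN7SK, AL669831.3, the 3 genes SNORD3B-1, SNORD3B-2 and SNORD3D, MALAT1, SNORD3A, and RNU1-4 and CROCCP4, which share 1 region. Those with the lowest were tRNA-Asn-AAC, tRNA-Glu-GAG_, EOMES, tRNA-Ser-AGY, TIAM1, tRNA-Asp-GAY, GLE1, tRNA-Tyr-TAC, tRNA-Lys-AAA and tRNA-Arg-AGA.

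The smaller total of GFP-(GP)10 limits what its silence shows. At an equal share of reads outside rRNA, a GFP-(GR)50 region needs 17.0 reads for its GFP-(GP)10 value to reach 5. Of the 592 regions outside rRNA in GFP-(GR)50 and not in GFP-(GP)10, 37 reached this, among them 10 7SK regions, 5 introns, 5 lncRNA regions and 4 snRNA regions, and none of the 95 exonic regions did. The absence of exonic regions from GFP-(GP)10 was therefore not measurable one by one at this depth.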

How the data were processed

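The deposited files hold 1 list of called regions per library. The submitters' processing notes name Novoalign 4.03.03, UMI-tools 1.1.2, bedtools 2.30.0 and featureCounts 2.0.2, with hg38 and GRCh38.p13 as builds. Their order and the method of calling regions are not stated there. Per the file headers, one column is a count of uniquely mapping reads. In the GFP-(GR)50 list 6 of its deposited values are not whole, so it was taken there as an expected count. The other deposited column is an expected count to which the authors added multimapping reads at a scaled weight. Neither is normalised for depth, and total library depths were not used.

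Coordinates are printed from 1, since deposited starts lie 1 below the RefSeq starts of 4 U3 genes. Each region got 1 of 13 RNA classes from the deposited annotation, any rRNA name counting first. Unannotated regions of 1 contig counted as rRNA matches if they measured 100 bp or more and an annotated rRNA region differed by no more than 5 bp in width and by no more than 5% or 2 reads. "Outside rRNA" leaves these out, but keeps regions inside the rDNA arrays that carry no rRNA name. Overlapping regions of both lists were joined into loci. Of 556 names outside rRNA, 471 are current RefSeq symbols, 14 matched 1 gene through an older name and 71 matched none, and names stay as in the files. Named are up to 15 names outside rRNA in 1 list alone, the 10 highest and 10 lowest ratios of shared names, up to 4 members of each of 15 gene lists, and the 5 highest regions of each list. GNAS, the intronic, repeat and scattered rRNA loci and further small RNA members were named after their values were seen. Members and lists were chosen with earlier results of these data known. With 1 library a side no test was run. Python 3.11.15, pandas 2.3.3, NumPy 2.4.6 and SciPy 1.17.1 were used, and the overlap and interval code was tested on simulated data.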

Additional observations from a re-analysis of the deposited data

How the results depend on the processing

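No paired analysis was possible because each fusion has 1 library in this experiment, so no replicate could be blocked or left out. Each recomputed value was set against a spread. This was the counting interval for shares, 1.5 times for counts of loci, and the 96 bp between quartiles for width. Of 79 values recomputed over 23 results, 30 stayed within the spread and 49 moved beyond it, and 16 of the 79 differ in sign from the value reported. All values are GFP-(GR)50 minus GFP-(GP)10 in percentage points unless said otherwise. The rRNA share of reads moved from 18.1 to 43.3 with unique reads only, 22.4 with contig matches counted, 7.0 at 10 or more reads and 19.5 in lists of the same length. For shares of regions, tRNA (-14.7) came to -19.7 outside rRNA. 7SK (2.94) came to 5.68 at 10 or more reads, 1.12 at 5 or more unique reads and 5.17 in lists of the same length. snRNA (1.76) came to 7.66 at 10 or more reads and 6.61 in lists of the same length, and exons (8.19) to 4.26 and 1.72. Introns (1.68) came to -6.95 at 5 or more unique reads and -10.9 in lists of the same length, and repeat elements (1.77) to -1.99 at 5 or more unique reads.

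For shares of reads, under unique reads only, outside rRNA and at 10 or more reads in that order, tRNA (-9.41) came to -21.3, -28.6 and -6.45. Introns (-5.08) came to -14.3, -1.43 and -0.482, and 7SK (0.333) to 1.34 and 8.65 under the first of these and the second. Direction turned for snRNA (-0.371) to 1.33, 3.61 and 0.234, and for exons (-0.536) to 1.01, 5.17 and 0.0901. Repeat elements (-3.22) came to -9.49, turned to 4.68 and came to -0.301. Of GFP-(GP)10 regions 50.3% were shared, 77.5% at 10 or more reads, 28.6% at 5 or more unique reads and 41.7% in lists of the same length. Of GFP-(GR)50 regions 15% were shared, 9.34% at 5 or more unique reads and 26.1% in lists of the same length. Shared names were 63.2% of the GFP-(GP)10 names at 10 or more reads and 26.5% of the GFP-(GR)50 names in lists of the same length. Loci past 2-fold (7 and 93) came to 29 and 60 scaled to reads outside rRNA and to 14 and 59 with unique reads. The median width difference (-0.5 bp) came to -151 bp at 10 or more reads. In lists of the same length it turned to 31.5 bp, within the wide spread of 96 bp. The unique share of reads (-13.5) came to -1.76 outside rRNA and -2.94 at 10 or more reads. After seeing the data, leaving out the highest repeat-element region turned repeat elements outside rRNA from 4.68 to -1.74, leaving out all regions in the rDNA arrays without an rRNA name turned them to -1.51 (and the ratio of reads outside rRNA from 3.39 to 3.28), and counting equal tRNA copies once took tRNA outside rRNA from -28.6 to -21.6. The cause of these moves was not tested. Scaled reads shared between copies are not independent, so intervals are too narrow, and low depth in GFP-(GP)10 limits all of its absences.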
